A study of Homo sapiens with 4 samples.

Results

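The enzymes that build purine and pyrimidine nucleotides from small precursors were followed at low oxygen in HCT116, an established line of human colon cancer cells. The 10 genes were CAD, DHODH and UMPS of the pyrimidine pathway and PPAT, GART, PFAS, PAICS, ADSL, ATIC and IMPDH2 of the purine pathway. They were chosen by name as enzymes of these pathways, with earlier results of these data known, and every probe set that the platform annotation lists for 1 of them alone was taken. This gave 29 probe sets of the 54675 on the array, and 10 genes of the 19775 that have at least 1 probe set listed for that gene alone. Hypoxia cells (exp A and exp B) were kept without serum for 24 h and then for 72 h at 1% oxygen. Normoxia cells (exp A and exp B) had the same serum-free period and then 72 h at 21% oxygen. All 4 samples come from a single line that had been starved of serum before the gas was changed. Biotin-labelled cRNA from 6 µg of total RNA was hybridised, 1 array per sample and 2 arrays per group. The labels do not say whether exp A and exp B were separate cultures, and the p-values given here reflect the spread between arrays, which may be technical.

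Cells make pyrimidines by closing the ring first and then attaching ribose phosphate, and make purines by assembling the ring step by step on ribose phosphate itself. The donor in both pathways is phosphoribosyl pyrophosphate (PRPP), and the purine pathway also draws on glycine, glutamine, aspartate and formyl groups carried by folate. The purine pathway ends in inosine monophosphate (IMP), from which AMP and GMP are made, and the pyrimidine pathway ends in UMP. The transcription factor MYC, as a dimer with MAX, is known to bind the sequence CACGTG at several of these genes in proliferating cells.

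Of the 10 genes, 8 fell in hypoxia, 0 rose and 2 were not called. CAD and UMPS fell in the pyrimidine pathway, and PPAT, GART, PFAS, PAICS, ADSL and ATIC fell in the purine pathway. All 8 were lower by at least 2-fold, from 2.09-fold for PPAT to 9.06-fold for ADSL, leaving aside PFAS, whose hypoxia signals were too low for a firm fold. Over all 12636 genes tested, 22.8% were called lower and 15.3% higher, and 16.2% were called lower by at least 2-fold. In 9 of the 10 genes both hypoxia signals lay under both normoxia signals, as they did in 37.9% of all genes tested. The median log2 difference over the 10 genes was -1.53, with -1.42 over the 7 purine genes and -1.67 over the 3 pyrimidine genes, beside -0.028 over all genes tested. The exceptions were DHODH, which missed the threshold, and IMPDH2, whose groups overlapped. Each gene is represented by its probe set with the highest mean signal. Each log2 difference subtracts normoxia from hypoxia after 23.7 was added to the signal. That constant shrinks the difference of genes with low signal, and folds are taken on the same scale. A gene was called at an adjusted p under 0.05 in limma with Benjamini-Hochberg adjustment over all genes tested. Each SE, interval and p-value combines the spread of a gene's own arrays with that of genes of like mean signal. RNA was taken from whole cultures, in which fewer cells of a kind and less RNA per cell cannot be told apart.

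**Figure D1:**
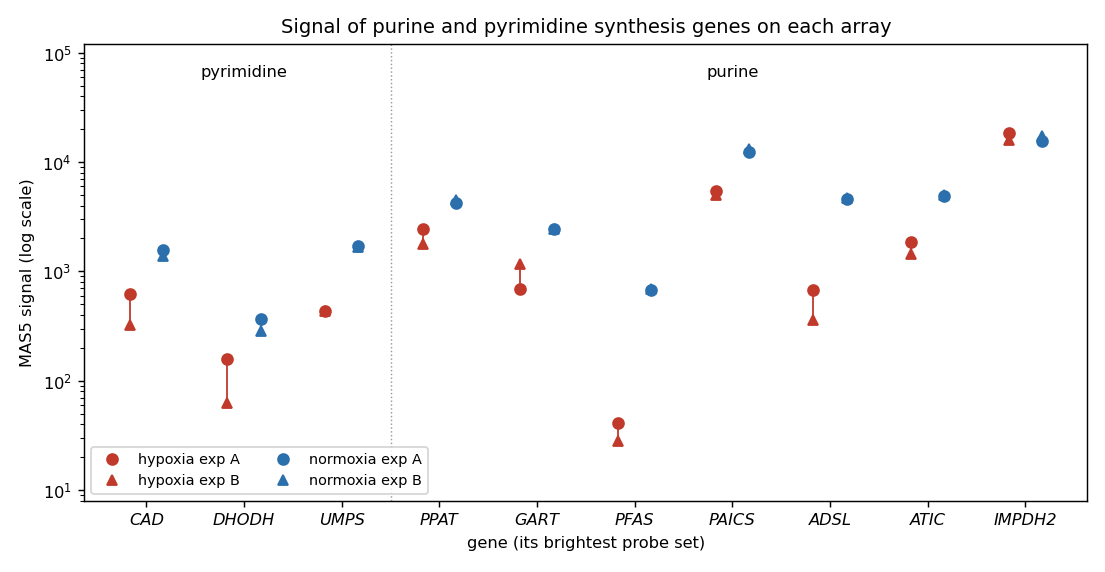
MAS5 signal (log axis) of the brightest probe set of each gene on the 4 arrays, with hypoxia in red left of normoxia in blue, circles for exp A and triangles for exp B, and a line joining the arrays of a group. Hypoxia points lie under normoxia points in 9 genes, PFAS lies at 41.1 and 28.0 in hypoxia, and IMPDH2 overlaps.

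Promoter sequence was read for the genes with an entry in a RefSeq table (GRCh38.p14), which covers 250 bases before to 50 bases after each start. Of the 10 genes, 8 had an entry, all but ADSL and IMPDH2. The motif CACGTG, which reads the same on both strands, was found in 4 of these 8: DHODH, PPAT, PAICS and ATIC. Of the 27305 genes in the table, 8.77% held it. The shorter ACGTG or GCGTG, searched on both strands, is the core that hypoxia-inducible factors bind, and every CACGTG contains ACGTG. It was found in 7 of the 8, all but UMPS, and in 52.4% of the genes in the table. A match is a description of letters, and binding was not measured. The DHODH and ATIC stretches are shown because they hold CACGTG upstream of the start. The PPAT-PAICS stretch is shown because these genes start on opposite strands, with 136 bases between their starts, and both fell. Capitals mark CACGTG.
DHODH, plus strand of chr16:72008494-72008773, from 250 bases before to 30 bases after the start, with CACGTG at -159 to -154:
DHODH: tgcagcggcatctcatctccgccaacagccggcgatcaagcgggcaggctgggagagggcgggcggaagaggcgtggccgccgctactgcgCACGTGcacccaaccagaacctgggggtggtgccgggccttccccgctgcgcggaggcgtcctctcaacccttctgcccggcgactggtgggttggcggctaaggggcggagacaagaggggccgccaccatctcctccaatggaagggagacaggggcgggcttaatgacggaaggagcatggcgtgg
ATIC, plus strand of chr2:215311809-215312088, over the same positions, with CACGTG at -46 to -41:
ATIC: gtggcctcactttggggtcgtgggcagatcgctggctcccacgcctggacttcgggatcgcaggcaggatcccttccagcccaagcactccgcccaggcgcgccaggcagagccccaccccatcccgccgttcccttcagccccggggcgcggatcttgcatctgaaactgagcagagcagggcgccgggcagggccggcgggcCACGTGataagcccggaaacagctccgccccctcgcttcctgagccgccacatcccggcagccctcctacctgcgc
PPAT-PAICS, plus strand of chr4:56435586-56435781, the 136 bases between the starts with 30 bases of each gene:
PPAT-PAICS: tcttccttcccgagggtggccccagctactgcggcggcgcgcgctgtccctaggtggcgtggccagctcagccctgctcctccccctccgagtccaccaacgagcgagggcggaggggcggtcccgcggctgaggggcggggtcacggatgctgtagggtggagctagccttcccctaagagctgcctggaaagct
The last stretch holds no CACGTG. The copy counted for PPAT and for PAICS is a single site beyond its right end, at -182 to -177 from the PPAT start and 41 to 46 from the PAICS start. PAICS has 3 starts in the table, and the window of this one shares 236 bases with that of PPAT. A further copy in the ATIC window lies at 30 to 35 and begins with the last base printed.

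CAD, the multifunctional enzyme that carries out the opening steps of pyrimidine synthesis and its main point of control, had signals of 619 and 322 in hypoxia (exp A and exp B), against 1569 and 1384 in normoxia. Both hypoxia arrays lay under both normoxia arrays, with hypoxia exp B the lower. The log2 difference was -1.67 ± 0.31 (SE), 3.17-fold lower, with an adjusted p of 0.00305. A second CAD probe set (1564084_at) lay under the signal filter and read 173 and 53.6 in hypoxia, against 76.6 and 24.0 in normoxia, with overlapping groups.

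DHODH, the enzyme of the inner mitochondrial membrane that oxidises dihydroorotate and passes its electrons to ubiquinone, read 157 and 62.8 in hypoxia, against 371 and 286 in normoxia. The groups did not overlap, but the hypoxia arrays lay far apart. Both DHODH hypoxia signals lay under the highest signals of the Bacillus control probe sets, sequences absent from human cells (305 in exp A and 226 in exp B). The size of the difference is therefore not firm. The difference of -1.48 ± 0.55 was not called (adjusted p = 0.0608), with a 95% interval from -2.73 to -0.24. Without hypoxia exp A the difference was -2.02, and without hypoxia exp B it was -0.95. With the letters A and B as a block the adjusted p was 0.0414. That block fit called 25.8% of all genes lower, against 22.8% without a block. The other DHODH probe sets, 217647_at and 213631_x_at, lay under the filter. The first read 6.45 and 33.0 in hypoxia, against 144 and 150.4 in normoxia. For the second the signals were 12.4 and 17.7 in hypoxia, against 96.7 and 19.6 in normoxia. In both, the hypoxia signals lay under the normoxia signals, without a test.

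UMPS, which turns orotate into UMP and so completes the pathway, gave 438 and 435 in hypoxia, against 1695 and 1682 in normoxia. The arrays of each group nearly coincided. The gene fell by 1.90 ± 0.22 on the log2 scale, 3.72-fold, with an adjusted p of 3.08e-04. A second probe set (202706_s_at) read 545 and 418 in hypoxia, against 1344 and 1429 in normoxia, and was called lower as well (-1.49, adjusted p = 0.00196 over probe sets). A further one (202707_at) read 167 and 116 in hypoxia, against 150.2 and 152 in normoxia. Its groups overlapped, and its interval ran from -1.38 to 1.19. Averaged over the UMPS probe sets past the filter, the difference was -1.16 and was still called (adjusted p = 0.00894).

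PPAT, which commits PRPP to purine synthesis and is inhibited by the purine nucleotides that the pathway makes, read 2448 and 1776 in hypoxia, against 4219 and 4533 in normoxia. On this probe set (209433_s_at) both hypoxia signals lay under both normoxia signals. The difference of -1.06 ± 0.20 was the smallest among the 8 genes that fell (adjusted p = 0.00299). The second bright PPAT probe set (209434_s_at) fell further, with 1130 and 1166 in hypoxia, against 3556 and 3010 in normoxia (-1.49, adjusted p = 5.74e-04 over probe sets). A dim probe set (235833_at) lay the other way, at 104 and 279 in hypoxia against 83.5 and 84.4 in normoxia, and was not called (0.87, interval -0.69 to 2.43). When the log2 values of all PPAT probe sets past the filter were averaged, the difference was -0.56 and was not called (adjusted p = 0.0653). Without an intensity trend in the variance model the adjusted p was 0.0510.

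GART, a trifunctional enzyme of early and middle steps of the purine pathway, was covered by 9 probe sets. The brightest (212378_at) read 690.4 and 1169 in hypoxia, against 2443 and 2457 in normoxia. The groups did not overlap, and here hypoxia exp A was the lower array. The gene fell by 1.42 ± 0.25 on the log2 scale, 2.68-fold, with an adjusted p of 0.00253. Of its 6 probe sets past the filter, 4 were called lower, with log2 differences from -1.42 to -1.07. The other two, 230766_at and 230097_at, lay higher in hypoxia without being called (0.66 and 0.72, adjusted p = 0.216 and 0.206 over probe sets). The first of these read 346 and 624 in hypoxia, against 323 and 253 in normoxia, and for the second the signals were 432 and 283 in hypoxia, against 186 and 221 in normoxia. Averaged over all 6, the GART difference was -0.58 and was not called (adjusted p = 0.0631). What sets these probe sets apart from the others was not tested.

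PFAS, which uses glutamine to add an amide nitrogen to the growing purine, read 41.1 and 28.0 in hypoxia, against 671 and 691 in normoxia. The gene is covered by 1 probe set, which passed the signal filter through its normoxia signals. Its log2 difference was -3.61 ± 0.50, with an adjusted p of 7.37e-04. Both hypoxia signals lay under the highest signal of the Bacillus control probe sets, sequences absent from human cells, which reached 305 and 226 on the hypoxia arrays (exp A and exp B). The size of the difference depends on the constant added to the signal. Over the alternatives tried the PFAS difference ran from -4.71 to -2.54. With the fits without 1 array left aside, PFAS stayed past the threshold. Its rank against ADSL turned with the constant: with 100 added to the signal, PFAS differed by -2.54 and ADSL by -3.00.

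PAICS, which catalyses the steps between GART and ADSL, read 5418 and 4944 in hypoxia, against 12244 and 13103 in normoxia. The groups were well apart, and the gene fell by 1.29 ± 0.16 on the log2 scale, 2.44-fold (adjusted p = 4.50e-04). A second probe set (201014_s_at) also fell, with 3771 and 2226 in hypoxia, against 7245 and 7657 in normoxia (-1.35, adjusted p = 0.00298 over probe sets). A dim further probe set (214664_at) split by array, with 150.5 and 11.7 in hypoxia, against 149 and 143 in normoxia. It was not called, and its interval ran from -3.20 to 0.97.

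ADSL, the lyase that acts both on the way to IMP and in the conversion of IMP to AMP, read 669.8 and 360.0 in hypoxia, against 4588 and 4715 in normoxia. Normoxia arrays nearly coincided, and hypoxia exp B was the lower of its group. The gene fell by 3.18 ± 0.27 on the log2 scale, 9.06-fold, with an adjusted p of 9.69e-05, the smallest of the 10. Its second probe set (210250_x_at) gave 720.4 and 450.5 in hypoxia, against 2752 and 3150.2 in normoxia, and fell too (-2.32, adjusted p = 3.06e-04 over probe sets).

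ATIC, the bifunctional enzyme that closes the purine ring and yields IMP, read 1864 and 1442 in hypoxia, against 4928 and 4957 in normoxia. Its groups did not overlap. ATIC, covered by 1 probe set, fell by 1.58 ± 0.18 on the log2 scale, 2.99-fold (adjusted p = 3.34e-04).

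IMPDH2, which oxidises IMP at the entry to GMP synthesis, read 18566 and 15953 in hypoxia, against 15631 and 17348 in normoxia. The arrays of the groups interleaved. The difference of 0.064 ± 0.17 was not called (adjusted p = 0.799), and its 95% interval from -0.33 to 0.46 excludes a 2-fold change in either direction under this scaling. Its sign turned with the scaling. After quantile normalization it was -0.42 and called lower (adjusted p = 0.0155), and with arrays scaled to the hybridization controls it was -1.39 (adjusted p = 0.0144).

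**Figure D2:**
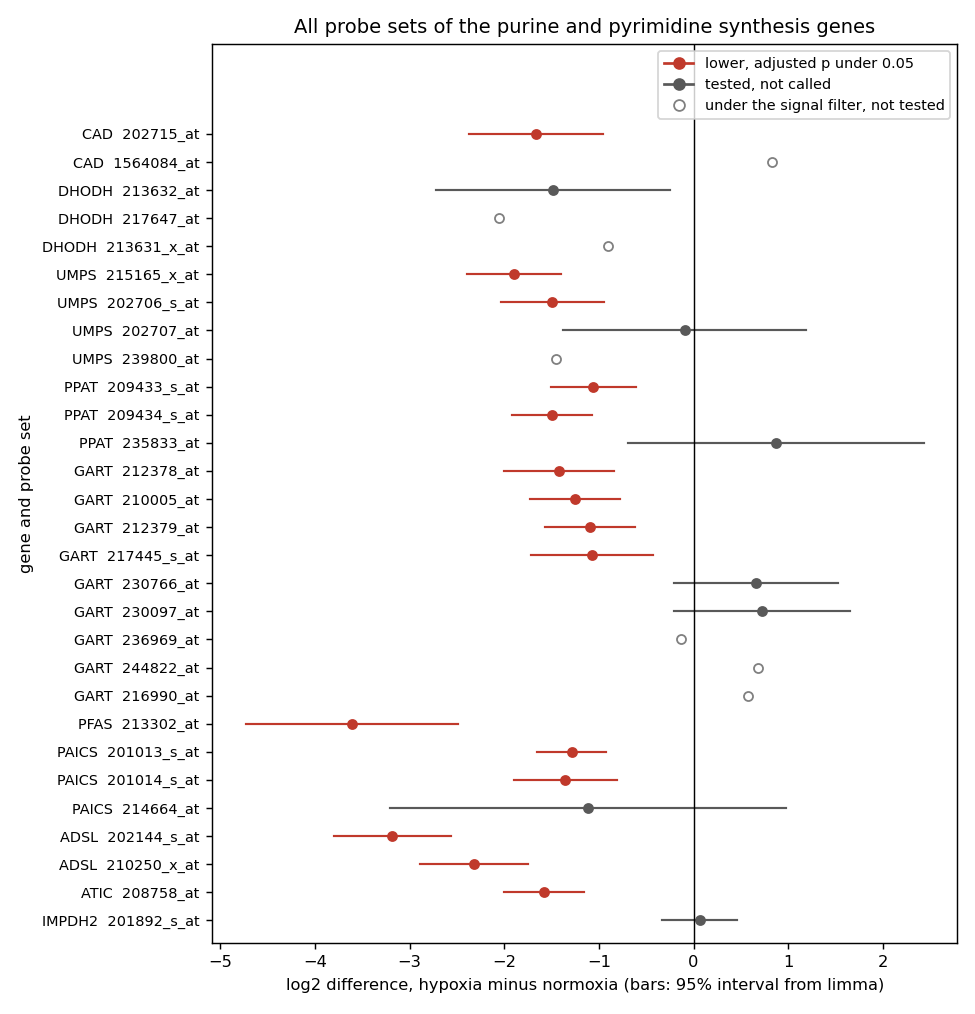
Log2 difference, hypoxia minus normoxia, of all 29 probe sets, with bars for the 95% interval from limma. Red points were called lower, grey points were tested and not called, and open points lay under the signal filter and have no interval. All bright probe sets but that of IMPDH2 lie left of 0, and the other tested points right of 0 have mean signals of at most 387.

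Taken by probe set, 15 of the 29 were called lower, 0 higher and 7 neither, and 7 lay under the signal filter of 97.4 and were not tested. Of all 23176 probe sets tested, 18.3% were called lower and 14.1% higher. Since a probe set can pass the filter through its normoxia signal alone, the share among those that passed was not read as support. UMPS, PPAT, GART, PAICS and ADSL each had at least 2 probe sets called lower. These share RNA and target gene and are not replicates. The 15 called probe sets had mean signals from 358 to 8927. The 6 uncalled ones other than that of IMPDH2 had mean signals from 114 to 387, and the 7 untested ones from 36.6 to 85.7. The untested ones not yet given were UMPS 239800_at, at 67.9 and 11.5 in hypoxia against 126 and 137 in normoxia, and 3 GART probe sets. Of the GART ones, 236969_at read 129 and 34.7 in hypoxia, against 45.7 and 131 in normoxia. For 244822_at the signals were 169 and 27.8 in hypoxia, against 77.3 and 14.4 in normoxia, and for 216990_at they were 113 and 9.03 in hypoxia, against 39.5 and 8.03 in normoxia. None of these 3 separated the groups.

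Within each letter, all 8 genes that fell were lower in hypoxia in exp A and in exp B. This follows from the separation of their groups given above and adds no further evidence. The letters were not taken to pair the arrays. Leaving aside PFAS (-3.42 and -3.79), the differences in exp A ran from -2.73 for ADSL to -0.78 for PPAT. In exp B they ran from -3.63 for ADSL to -1.06 for GART. UMPS gave -1.90 in both. DHODH was also lower in both, by -1.13 in exp A and -1.84 in exp B. IMPDH2 changed sign, with 0.25 in exp A and -0.12 in exp B.

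**Figure D3:**
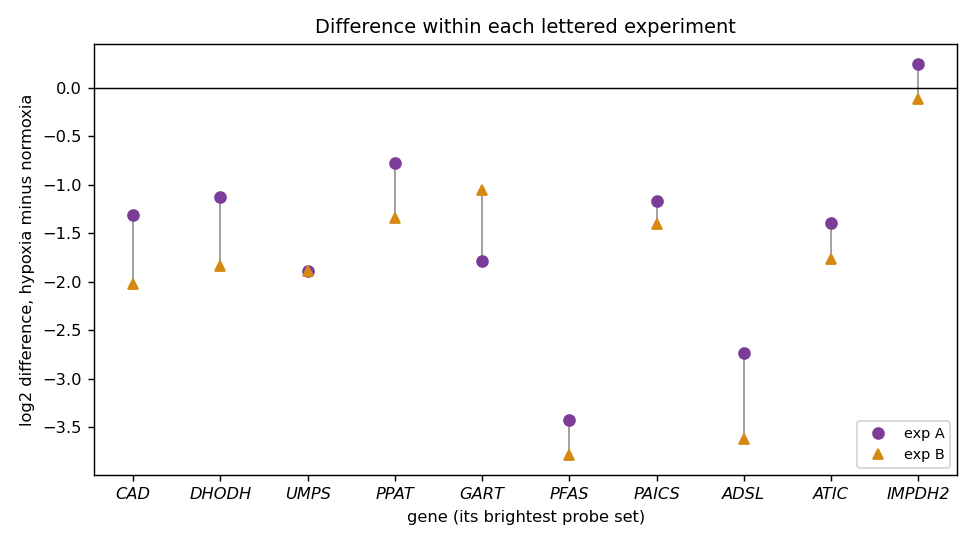
Log2 difference, hypoxia minus normoxia, of each gene's brightest probe set within exp A (purple circles) and within exp B (orange triangles), with a line joining the pair and a horizontal line at 0. All genes but IMPDH2 lie under 0 in both, and GART lies lower in exp A (-1.79) than in exp B (-1.06).

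Several measures of the arrays moved with the groups. Cycling markers fell in hypoxia in 5 of 5 cases (MKI67, TOP2A, CCNB1, MCM5 and PCNA), with summed signals of 8311 to 10106 in hypoxia and 21195 to 23005 in normoxia. The ratio of 3' to 5' signal of the actin control was 1.66 and 1.77 in hypoxia, against 1.26 and 1.28 in normoxia, while that of GAPDH was 0.912 and 0.955 in hypoxia, against 0.918 and 0.996 in normoxia. Hybridization controls had a mean log2 signal of 13.27 and 13.07 in hypoxia, against 11.25 and 12.17 in normoxia. The highest Bacillus control signals were 305 and 226 in hypoxia, against 45.7 and 121 in normoxia. Median Bacillus control signals were 55.5 and 25.7 in hypoxia, against 16.9 and 17.2 in normoxia. The level of these controls, which have no human target, was thus higher on the hypoxia arrays. The part of these measures in the results was not tested. Each array had a trimmed mean of 500.1, so differences are relative to the other genes. NDRG1, VEGFA and ANKRD37, known responders to low oxygen, were all called higher in hypoxia. Of the 9 colon epithelial markers, EPCAM, KRT8, KRT18, KRT19 and CDH1 were bright on all 4 arrays, and EPCAM, KRT19 and CDH1 were called higher in hypoxia (adjusted p = 0.0167, 0.00996 and 0.00170). CDX2 read 23.0 and 107 in hypoxia, against 210.0 and 217 in normoxia, and was not called. VIL1 was dim and not called, and CDX1 and LGALS4 lay under the filter. The summed signal of the 9 was 107905 to 115368 in hypoxia and 74117 to 87798 in normoxia. No leukocyte marker passed the filter (summed signals 111 to 128 in hypoxia, 70.1 to 233 in normoxia). Of 4 endothelial markers PECAM1 alone passed, at 210.4 and 223 in hypoxia against 79.2 and 104 in normoxia, and was not called. Both PECAM1 hypoxia signals lay under the highest Bacillus control signals of their arrays. Summed signals of the 4 ran from 348 to 437 in hypoxia and from 105 to 292 in normoxia. Of the fibroblast markers 4 of 5 passed and only COL1A1 was called higher. It read 1752 and 2162 in hypoxia, against 545 and 595 in normoxia. COL1A2, DCN and LUM were dim, overlapped between the groups and were not called, and COL3A1 lay under the filter. Summed signals of the 5 were 2355 to 2777 in hypoxia and 679.9 to 1162 in normoxia. COL1A1 gave the largest part of each sum. The part of these marker differences in the results was not tested.

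Around these enzymes, 52 further genes were examined by role, 3 of them regulators (MYC, MAX and ATF4) and the others genes of nucleotide metabolism. Of the 46 tested, 19 (MYC among them) were called lower, 4 higher and 23 neither, and their median log2 difference was -0.44. Of the 6 not tested, 2 lay under the filter and 4 had no probe set of their own in the annotation. The list was drawn up with earlier results of these data known, and its counts stand beside the shares of 22.8% lower and 15.3% higher among all genes tested.

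Upstream, 2 of 4 genes of PRPP supply fell. PRPS1, a PRPP synthetase, read 666 and 1249 in hypoxia, against 2861 and 2776 in normoxia (-1.60, adjusted p = 0.00218). PRPS2, its close relative, differed by -0.52 (adjusted p = 0.0377) and lost its call under 7 alternatives. Of the 4 genes of formate and folate supply tested, 2 fell. MTHFD1, which makes the formyl-folate used by GART and ATIC, read 679 and 655 in hypoxia, against 5802 and 6535 in normoxia (-3.16 ± 0.18, adjusted p = 2.40e-05). A dim MTHFD1 probe set (239846_at) lay the other way, at 157 and 301 in hypoxia against 66.5 and 89.5 in normoxia, and was not called (1.26, adjusted p = 0.154 over probe sets). Averaged over both, the MTHFD1 difference was -0.95 (adjusted p = 0.0227). SHMT2, the mitochondrial serine hydroxymethyltransferase, fell by 1.90 on the log2 scale (adjusted p = 1.27e-04).

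Downstream of IMP, 3 genes besides IMPDH2 were tested and 1 of them rose. IMPDH1, the second IMP dehydrogenase gene, read 756 and 843 in hypoxia, against 275 and 288 in normoxia. Its groups were clearly separate, in contrast to the overlap of IMPDH2, and it rose by 1.43 ± 0.28 on the log2 scale (adjusted p = 0.00414). Scaled to the hybridization controls, the IMPDH1 difference was 0.040 and was not called. GMPS, the next enzyme towards GMP, differed by 0.35 and was not called (adjusted p = 0.122), but its probe sets disagreed. Its probe set 229333_at was called lower (-2.07, adjusted p = 0.00355 over probe sets), and the mean over its probe sets was -1.23. Beyond UMP, 2 of 4 tested genes of UTP and CTP synthesis fell. CTPS1, which makes CTP from UTP, read 72.7 and 177 in hypoxia, against 1051 and 963 in normoxia (-2.89, adjusted p = 8.63e-04). Both CTPS1 hypoxia signals lay under the highest Bacillus control signals of their arrays (305 and 226), so the size of this difference is not firm. NME1, a nucleoside diphosphate kinase, fell by 1.73 on the log2 scale (adjusted p = 1.21e-04).

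The listed deoxynucleotide genes, which include enzymes of synthesis and of breakdown, all fell, 8 of 8, with a median log2 difference of -1.77. RRM2, the small subunit of ribonucleotide reductase, read 1731 and 689 in hypoxia, against 9254 and 10120 in normoxia (-3.12, adjusted p = 2.85e-04). SAMHD1, which breaks deoxynucleoside triphosphates down, fell by 2.78 on the log2 scale (adjusted p = 3.22e-04). It read 138 and 238 in hypoxia, against 1492 and 1284 in normoxia. The highest Bacillus control signals of the hypoxia arrays were 305 and 226, so the size of this difference is not firm. Its probe sets 204502_at, 235529_x_at and 235964_x_at were also called lower, and 1559883_s_at was not (-2.04, adjusted p = 0.0937 over probe sets). The hypoxia arrays lay far apart on 235529_x_at (17.6 and 448) and 235964_x_at (12.6 and 325).

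Salvage genes were mixed, with 4 of 12 lower, 2 higher and 6 not called. CDA, which deaminates cytidine and deoxycytidine, read 3581 and 3344 in hypoxia, against 508 and 565 in normoxia (2.64, adjusted p = 5.50e-05). UPP1, uridine phosphorylase, rose by 1.81 (adjusted p = 0.00217). Among 8 breakdown genes 0 fell, 1 rose and 7 were not called. NT5E, the cell-surface enzyme that turns AMP into adenosine, read 2755 and 6546 in hypoxia, against 1204 and 835 in normoxia (2.06, adjusted p = 0.00237). Another NT5E probe set, 1553995_a_at, was called higher (1.87, adjusted p = 0.00221 over probe sets). Its probe sets 1553994_at (0.53, adjusted p = 0.260) and 227486_at (1.31, adjusted p = 0.0659) were not called. The NT5E difference was 2.68 without hypoxia exp A and 1.44 without hypoxia exp B, and without an intensity trend it was not called (adjusted p = 0.0539). DPYD, which starts pyrimidine breakdown, differed by 1.47 and was not called (adjusted p = 0.0595). It was called with the letters as a block (adjusted p = 0.0241) and with scaling to the 75th percentile (adjusted p = 0.0455). The block fit called 2222 of all genes higher, against 1927 without a block. The DPYD difference was 2.11 without hypoxia exp A and 0.84 without hypoxia exp B. With arrays scaled to the hybridization controls, none of the pathway genes was called higher.

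Of the regulators, MYC fell, with 5508 and 6941 in hypoxia, against 13390 and 14846 in normoxia. Its groups did not overlap, and the difference was -1.19 ± 0.18 (adjusted p = 0.00109). ATF4, a stress-induced activator of amino acid and serine-folate genes, differed by 0.51 and was not called (adjusted p = 0.0788), and its sign turned under quantile normalization (-0.011) and under the hybridization controls (-0.95). MAX, the partner of MYC, was not called. Whether MYC binding or amount bears on the synthesis genes was not tested.

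**Figure D4:**
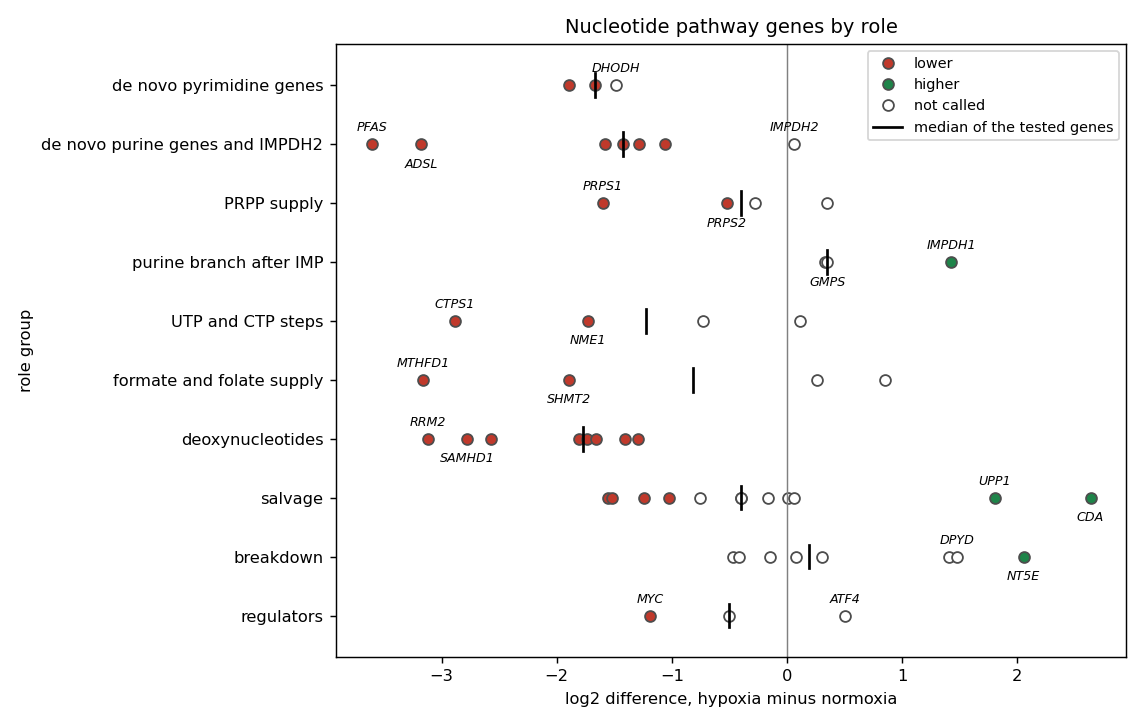
Log2 difference, hypoxia minus normoxia, of every tested nucleotide pathway gene and regulator, one row per role with the 10 synthesis genes at the top. Red points were called lower, green points higher and open points neither, and the black bar is the median of the row. The 8 deoxynucleotide genes all lie left of 0, and the 4 genes called higher are IMPDH1, UPP1, CDA and NT5E.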

How the data were processed

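The values are intensities (signals on a linear scale) deposited by the authors, 1 per probe set. The submitters' processing notes name MAS5, with no version. After trimming 2% of values at each end, every array had a mean of 500.1. Detection calls were not used here. No array pair shared more than 1 identical value. Of 54675 probe sets, 41091 were listed for 1 gene, 1801 for several genes, 11721 for none and 62 were controls; only the first kind was tested. Array number limits the precision.

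Groups were taken from the labels. A gene was tested if its brightest probe set averaged at least 97.4, the median of all probe set means. Signals were put on the log2 scale after adding 23.7, which is the 25th percentile over all values. All such genes (12636), and separately all such probe sets (23176), were fitted with limma 3.58.1 in R 4.3.3 (lmFit, eBayes with an intensity trend, two-sided) and Benjamini-Hochberg adjustment. The fit was tested on simulated data. Tables and figures used Python 3.11.15, with matplotlib 3.10.9. The genes named are the 10 synthesis genes with every probe set, the 2 tested genes of each role with the greatest absolute difference, MYC, and marker genes; MAX was named after its values were seen. Members and lists were chosen with earlier results of these data known.

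Alternatives were scaling to the hybridization controls or to the 75th percentile, quantile normalization, pseudocounts of 1 and 100, other filters, variance models and thresholds, averaging each gene's probe sets, leaving out probe sets with the suffixes _x_at, _s_at or _a_at, a replicate block, and leaving out each array in turn.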

Additional observations from a re-analysis of the deposited data

How the results depend on the processing

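Between 7 and 10 synthesis genes were called lower over the 16 alternatives, and 0 were called higher in any of them. All 10 were called only with the hybridization controls, where 43.6% of all genes were called lower. A count of 7 came without an intensity trend (14.3% of all genes) and with averaged probe sets (20.7%). With the filter at the 75th percentile, 7 of the 8 tested were called lower (32.3% of all genes). A fit that leaves 1 array in a group takes its spread from the other group alone. The median log2 SD over all genes was 0.274 in hypoxia and 0.148 in normoxia, so the calls of these fits were not read as evidence. Without 1 array the synthesis genes had a median log2 difference from -1.83 (without hypoxia exp A) to -1.31 (without hypoxia exp B). With the fits without 1 array left aside, CAD, UMPS, PFAS, PAICS, ADSL and ATIC kept their call under every alternative in which they were tested. PPAT lost its call under 2 settings and GART under 1, as given above. The labels do not say whether the letters pair the arrays, so the main fit had no block. The deviations of arrays that share a letter had a correlation of 0.0875 across genes. With 2 arrays per group this cannot settle whether they were paired. With the letters as a replicate block, 9 synthesis genes, 16 of their probe sets and 20 other pathway genes were lower, and 0, 0 and 6 were higher. In that fit 25.8% of all genes and 22.1% of all probe sets were lower. Of the probe sets, 9 were called lower without an intensity trend and 6 of the 12 left without the suffixes _x_at, _s_at or _a_at. The shares over all probe sets were 9.57% and 16.6%. Leaving out each array gave 13 to 17 lower and 0 to 1 higher, the 1 (230766_at) without hypoxia exp A. Other pathway genes called lower numbered 16 to 22 without 1 array, and those called higher 4 to 10, with 10 without hypoxia exp B. Scaling to the 75th percentile gave 8 higher, and scaling to the hybridization controls 0.

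The all-gene median shifted by -1.37 when arrays were scaled to the hybridization controls, and relative to it the synthesis genes had a median of -1.53. Scaling to the 75th percentile shifted it by 0.14, and the synthesis genes had a median of -1.51 relative to it. Over all genes, the split of 1927 higher and 2876 lower became 52 and 5514 under the first and 2373 and 2405 under the second. All-gene calls were 1330 higher and 1811 lower without the trend. Signs turned for IMPDH2 (201892_s_at), at -0.42 after quantile normalization, -1.39 with the hybridization controls, and between -0.046 (without hypoxia exp A) and 0.17 when 1 array was left out, with -0.012 without normoxia exp A. GMPS turned to -1.09 with the hybridization controls and -1.23 with the mean of its probe sets, and ATF4 to -0.011 after quantile normalization and -0.95 with the controls. Among dim probe sets, 202707_at turned to 0.034 at the 75th percentile and ran from -0.32 to 0.13 (without hypoxia exp B) when 1 array was left out, and 214664_at from -2.26 to 0.036 (without hypoxia exp B). With the controls, 230097_at turned to -0.62, 230766_at to -0.71 and 235833_at to -0.34. The cause of these changes was not tested. Signals under about those of the Bacillus controls, such as PFAS, DHODH and CTPS1 in hypoxia, have no firm level. The highest of these control signals were 305 in hypoxia exp A and 226 in hypoxia exp B. The dim probe sets 235833_at (PPAT) and 239846_at (MTHFD1), higher in hypoxia, lay under the first and above the second. Their size of difference is therefore not firm either.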
